A study of Mus musculus with 21 samples.

Results

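Hepatocyte-like cells made from mouse fibroblasts with small molecules were compared with primary mouse hepatocytes across all genes, by RNA sequencing of polyadenylated transcripts. The induced cells, labelled C6F5UE-C6F(L)V, were measured in 3 libraries and the hepatocytes, labelled pHeps, in 2. These 5 libraries, of the 21 in the study, were taken by their group labels, and they stand in 1 deposited table of read counts. All 5 are labelled as wild type.

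The C6F5UE-C6F(L)V cells began as mouse embryonic fibroblasts (MEF). They were first kept in a medium used for reprogramming towards extraembryonic endoderm (XEN), with 10% KSR, 10% FBS and 50 ng/ml bFGF. It held the set of compounds abbreviated C6F5UE, which was 20 µM CHIR99021 (a GSK3 inhibitor), 10 µM 616452 (which blocks the TGF-beta receptor), 50 µM Forskolin (an activator of adenylate cyclase), 1 µM CH55 (a retinoic acid receptor agonist), 0.05 µM UNC0638 (which blocks the H3K9 methyltransferases G9a and GLP) and 5 µM EPZ004777 (a DOT1L inhibitor). On day 4 the cells were moved to DMEM/F-12 with 10% FBS, ITS, 1 µM dexamethasone, 10 mM nicotinamide, 10 ng/ml FGF4, 20 ng/ml HGF, 20 ng/ml EGF and 50 µg/ml vitamin C. For 4 days this medium held CHIR99021, 616452 and Forskolin at 20, 10 and 50 µM, and after that at 3, 2 and 2 µM. The pHeps were isolated from liver and cultured for 2 days. Uncultured liver was not analysed here, and the labels give neither the age of the hepatocyte donors, the day on which induced cells were collected, nor the sex of either group. Nor do they say if libraries sharing a label had separate inductions or animals behind them, so p-values measure the spread between these libraries only.

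Hepatocytes are the main secretory and metabolic cells of the liver. They release albumin, apolipoproteins, clotting and complement factors into blood, turn ammonia into urea, store and release glucose, make bile acids and oxidise drugs with cytochrome P450 enzymes. A network of transcription factors that includes Hnf4a, the Foxa factors and Cebpa holds this programme in place, and hepatocytes taken into culture are known to lose part of it.

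The 5 libraries held 11163621, 10029453 and 9180939 counts in C6F5UE-C6F(L)V, against 10518741 and 11135249 in pHeps, and the largest of all 21 libraries held 12319883. Libraries of the same group correlated at 0.972 to 0.977 in log2 CPM (counts scaled to a fixed library total), and libraries of different groups at 0.744 to 0.764. C6F5UE-C6F(L)V replicates 2 and 3 stood apart in ribosomal RNA: the mitochondrial rRNA gene mt-Rnr1 had 1.11, 339 and 362 CPM in the induced cells, against 2.4 and 2.97 CPM in pHeps, and the short gene Gm23935 took 0.00134%, 1.34% and 1.26% of counts, against 0.00163% and 0.00154%. The groups also differed in sex-linked genes. Xist, the RNA that coats the inactive X chromosome, had 1440, 1387 and 1334 CPM in C6F5UE-C6F(L)V, against 0 and 0.0956 CPM in pHeps, while the Y-linked gene Eif2s3y had 12.2, 9.62 and 10.9 CPM, against 125 and 136 CPM. Sex and group therefore cannot be told apart, which touches genes that differ between male and female liver.

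Of the 54532 genes in the table, 15531 had enough counts to be tested. With edgeR's quasi-likelihood test, a gene was called at an adjusted p (Benjamini-Hochberg) under 0.05 together with a log2 fold change, C6F5UE-C6F(L)V over pHeps, of at least 1 in size. By this rule 2864 genes were higher in C6F5UE-C6F(L)V (18.4%) and 2276 were lower (14.7%), which is 33.1% in either direction. The median log2 fold change of all tested genes was 0.01, with quartiles of -0.60 and 0.78, and 9705 genes (62.5%) lay within a log2 fold change of 1. A log2 fold change of 5 or more in size was reached by 544 of the genes that were higher and 401 of the genes that were lower. In 11310 genes (72.8%) the CPM of the 3 induced libraries and the 2 hepatocyte libraries did not overlap, so separation of the groups by itself is common in these data. Per kilobase of gene length, the short genes Gm23935 (147033 CPM per kilobase) and Gm24270 (5656) stood 1st and 4th in C6F5UE-C6F(L)V. Of the other genes Apoa1 (10470), Tff3 (8132), Rplp1 (4819), Alb (4160) and Mt1 (3627) led. In pHeps the leading genes were Hamp (15696), Mt1 (8670), Rplp1 (8627), Alb (7576), Sprr1a (6853) and Lcn2 (5467). The plot of group means sets every tested gene on 2 axes.

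**Figure D1:**
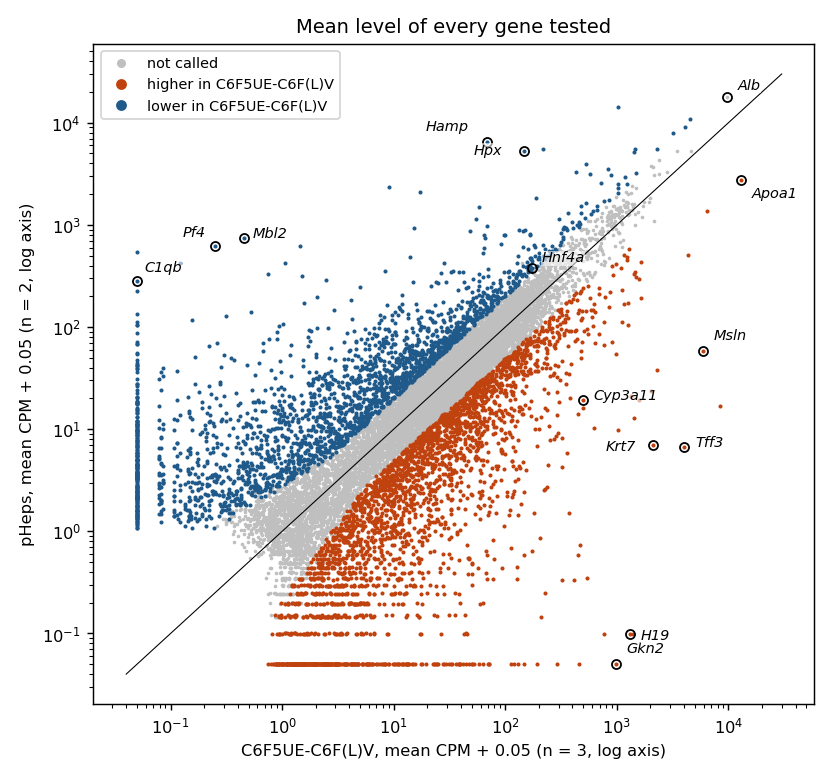
Mean CPM of each of the 15531 tested genes in C6F5UE-C6F(L)V (n = 3, horizontal log axis) and in pHeps (n = 2, vertical log axis), with 0.05 CPM added to each mean so that genes at 0 can be drawn. Orange points are the 2864 genes called higher in C6F5UE-C6F(L)V, blue points the 2276 called lower and grey points the rest; the line marks equal levels. Gkn2 and C1qb sit at the edges because 1 group had no count, while Alb lies close to the line.

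Gene groups below are lists by function or cell type, chosen with earlier results of these data known. Each is given as its called members in each direction, to be read against the 18.4% and 14.7% of all genes and the overall median of 0.01. A member with no count in C6F5UE-C6F(L)V, or with none in pHeps, reached the test only through the other group. Counts and medians that include such members are a description. This holds also where it is not repeated, as for Stra6 (extraembryonic), Col6a3 (fibroblast), Colec11 (stellate) and Foxf2 (YAP). A change in bulk RNA cannot tell fewer cells of a type from less RNA per cell.

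Albumin, the main carrier protein of plasma, was the gene with the most reads in hepatocytes, and its lower level in C6F5UE-C6F(L)V did not reach a call. Alb (ENSMUSG00000029368, GRCm38 chr5:90460897-90476602) had 11906, 7711 and 9609 CPM in C6F5UE-C6F(L)V, against 17066 and 18422 CPM in pHeps, and 0.0296 CPM on average in MEF. Every induced library was below both hepatocyte libraries, yet the log2 fold change of -0.86 (SE 0.13, adjusted p = 1.1e-04) was under the size needed for a call, which it reached only without C6F5UE-C6F(L)V replicate 1 (-1.03). Afp, the fetal form of albumin, was low in both groups, at 35, 44.9 and 34.6 CPM in C6F5UE-C6F(L)V, against 68.2 and 65.2 CPM in pHeps, and was not called either. Transthyretin, which carries thyroid hormone and retinol-binding protein, overlapped between the groups: Ttr had 777, 584 and 710 CPM in C6F5UE-C6F(L)V, against 605 and 555 CPM in pHeps. The fetuin gene Ahsg also overlapped, at 2019, 1691 and 2172 CPM against 1638 and 2027 CPM.

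Across plasma carriers and apolipoproteins, 4 of 29 tested members were higher in C6F5UE-C6F(L)V and 16 were lower, with a median log2 fold change of -1.18. Apoa1, the main protein of high-density lipoprotein, was among the 4. It had 14442, 12382 and 12000 CPM in C6F5UE-C6F(L)V, against 2895 and 2556 CPM in pHeps (log2 fold change 2.25, SE 0.10, adjusted p = 1.5e-09). In the fit to all 21 libraries its fold was the same and its adjusted p was 0.0671. Every induced library exceeded both hepatocyte libraries by more than 4-fold. Itih3, an inter-alpha-trypsin inhibitor heavy chain, rose further, by 3.02 on the log2 scale, and Fetub, a fetuin, by 1.38. The fourth member, Apoh, was called at 1.15 but not without C6F5UE-C6F(L)V replicate 1, where it was 0.97. The members that fell included Hpx, hemopexin, the plasma scavenger of haem. Hpx had 163, 152 and 130 CPM in C6F5UE-C6F(L)V, against 4821 and 5699 CPM in pHeps (log2 fold change -5.15, SE 0.12, adjusted p = 5.8e-12). Apom, a carrier of sphingosine 1-phosphate, was almost absent from the induced cells, with 0.256, 0.962 and 0.211 CPM against 134 and 147 CPM, and its log2 fold change of -8.17 was -9.14 without C6F5UE-C6F(L)V replicate 2. Ambp fell by 2.94, Apoe by 1.95 and the retinol carrier Rbp4 by 1.32 on the log2 scale. As a share of all counts the list took 3.87%, 2.99% and 3.24% in C6F5UE-C6F(L)V, against 4.33% and 4.52% in pHeps.

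Clotting factors were lower for the greater part. Of 24 tested genes of coagulation and fibrinolysis, 3 were higher in C6F5UE-C6F(L)V and 14 were lower (median -1.39). The 3 fibrinogen chains, which are assembled into 1 protein, did not move alike. Fgb had 1578, 1343 and 1359 CPM in C6F5UE-C6F(L)V, against 4913 and 5326 CPM in pHeps, and fell by 1.84 (SE 0.09, adjusted p = 4.3e-09), with an adjusted p of 0.0629 in the fit to all 21 libraries. Fga, at 822, 676 and 685 CPM against 1107 and 1290 CPM, had a log2 fold change of -0.72 and was not called. Fgg overlapped between the groups, with 830, 653 and 676 CPM in C6F5UE-C6F(L)V against 741 and 877 CPM in pHeps. Factor IX and protein C were lower by a wide margin: F9 had 3.16, 1.83 and 2.01 CPM against 33.3 and 32.8 CPM, and Proc had 5.73, 2.6 and 4.65 CPM against 88.9 and 95.6 CPM. F10 (log2 fold change 1.57), Proz (1.69) and Hrg (2.05) were the members that rose.

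Complement and acute phase genes were lower in C6F5UE-C6F(L)V as well. In the complement list 2 of 20 tested members were higher and 11 lower (median -1.08), and 1 was higher without C6F5UE-C6F(L)V replicate 1 or 3 or pHeps replicate 2. Mbl2, the mannose-binding lectin that starts the lectin pathway, had 0, 0.577 and 0.634 CPM in C6F5UE-C6F(L)V, against 754 and 742 CPM in pHeps. The central component C3 fell by 1.14 (SE 0.11, adjusted p = 2.0e-06), and C4bp, an inhibitor of the pathway, rose by 1.77. In the acute phase and iron list 1 of 25 tested members was higher and 17 were lower (median -2.88), and 2 were higher without C6F5UE-C6F(L)V replicate 3. Hamp encodes hepcidin, the hormone that blocks iron export. It had 79.4, 71.8 and 53.5 CPM in C6F5UE-C6F(L)V, against 6898 and 5973 CPM in pHeps (log2 fold change -6.56, SE 0.16, adjusted p = 7.6e-12), and it was the most abundant transcript per kilobase in pHeps. Lcn2, a siderophore-binding protein, had 1092, 1048 and 929 CPM against 13362 and 15316 CPM. Haptoglobin (Hp) fell by 2.88 and ceruloplasmin (Cp) by 2.45. The serum amyloid genes Saa2, Saa3 and Saa4 also fell, but reads of this family of near-identical genes may be split between members. The member that rose was Socs3, a feedback inhibitor of interleukin 6 signalling, with 172, 197 and 129 CPM in C6F5UE-C6F(L)V, against 40.4 and 30.7 CPM in pHeps. The list as a whole took 0.404%, 0.383% and 0.347% of counts in C6F5UE-C6F(L)V, against 3.11% and 3.32% in pHeps.

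Upstream sequences of 4 hepatocyte genes that went different ways are shown, because the factor Hnf4a is known to act on liver genes of this kind. Each is the 250 bases before the RefSeq start of the gene in GRCm38.p6, read 5′ to 3′ on the strand of the gene. Capitals mark an HNF4-type repeat, CAAAGTCCA on either strand.
Alb: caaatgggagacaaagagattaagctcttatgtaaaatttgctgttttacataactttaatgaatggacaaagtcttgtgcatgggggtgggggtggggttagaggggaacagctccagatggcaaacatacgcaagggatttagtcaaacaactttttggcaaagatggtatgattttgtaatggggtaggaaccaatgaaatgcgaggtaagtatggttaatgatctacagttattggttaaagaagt
Fgb: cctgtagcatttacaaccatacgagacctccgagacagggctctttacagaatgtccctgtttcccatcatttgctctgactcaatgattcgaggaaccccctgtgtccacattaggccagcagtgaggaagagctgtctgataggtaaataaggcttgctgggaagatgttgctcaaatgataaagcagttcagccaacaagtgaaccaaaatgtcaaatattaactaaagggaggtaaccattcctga
G6pc: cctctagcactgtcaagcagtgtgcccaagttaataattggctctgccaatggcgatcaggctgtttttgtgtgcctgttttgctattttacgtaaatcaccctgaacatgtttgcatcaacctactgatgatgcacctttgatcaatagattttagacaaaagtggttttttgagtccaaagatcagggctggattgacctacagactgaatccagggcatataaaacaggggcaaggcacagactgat
Cyp3a11: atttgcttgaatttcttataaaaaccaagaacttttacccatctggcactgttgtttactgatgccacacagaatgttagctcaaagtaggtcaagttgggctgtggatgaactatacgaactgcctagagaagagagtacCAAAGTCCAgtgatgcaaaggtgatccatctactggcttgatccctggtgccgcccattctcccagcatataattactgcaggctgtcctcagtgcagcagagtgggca
These windows are chr5:90460620-90460869 (plus strand) for Alb, chr3:83049864-83050113 (minus strand) for Fgb, chr11:101367466-101367715 (plus strand) for G6pc and chr5:145879855-145880104 (minus strand) for Cyp3a11. The repeat began at -109 from the RefSeq start in Cyp3a11, and these letters were not in the windows of the other 3 genes. The coordinates given below for Cyp3a11 start further upstream than the RefSeq start. By those coordinates the repeat lies inside the gene and not before it. Of all 32851 promoters 0.384% held the repeat. It was in 0.495% of the promoters of genes called higher (10 of 2019), 0.868% of those called lower (14 of 1612) and 0.266% of those not called (20 of 7508). These sets hold a single promoter per gene name, while the 32851 include every promoter listed. A link between the repeat and the direction of a gene was not tested. A match describes the window and shows no binding.

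Glucose metabolism was split between genes that were far higher and far lower in C6F5UE-C6F(L)V, with 7 of 19 tested members higher and 6 lower (median 0.41). G6pc, glucose-6-phosphatase, releases free glucose from the hepatocyte. It had 36.5, 20.5 and 34.7 CPM in C6F5UE-C6F(L)V, against 0.1 and 0.67 CPM in pHeps (log2 fold change 6.25, SE 0.47, adjusted p = 2.0e-07), with 5.48 without pHeps replicate 1 and 8.09 without pHeps replicate 2. Slc2a2, the liver glucose transporter GLUT2, had 138, 93.4 and 127 CPM against 1.2 and 3.63 CPM (log2 fold change 5.61, and 6.62 without pHeps replicate 2). For both genes even the lowest induced library was far above either hepatocyte library. Pck1, which starts gluconeogenesis, rose by 2.23. Among the members that fell was liver glycogen phosphorylase, Pygl, which breaks glycogen down. Pygl had 5.47, 5.1 and 1.69 CPM in C6F5UE-C6F(L)V, against 183 and 184 CPM in pHeps (log2 fold change -5.45, SE 0.23, adjusted p = 8.8e-10). The branching enzyme Gbe1 fell by 2.82, and Gckr, the regulator of glucokinase, by 4.21, while Ppp1r3b, which targets a phosphatase to glycogen, rose by 1.72.

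Many liver enzymes have a counterpart that most tissues use, and the share of the liver form in the sum of both, per kilobase, gives a level that does not depend on library size. Mat1a, the S-adenosylmethionine synthase of adult liver, made up 54.4%, 43.7% and 50.7% of Mat1a and Mat2a in C6F5UE-C6F(L)V, against 8.26% and 8.49% in pHeps. Slc2a2 made up 51.4%, 33.2% and 50.7% of Slc2a2 and Slc2a1, against 0.952% and 2.77%. In both of these the liver form had a larger share in every induced library than in either hepatocyte library. The reverse held for glycogen phosphorylase, where Pygl was 6.57%, 4.7% and 1.95% of Pygl and Pygb in C6F5UE-C6F(L)V, against 81.5% and 82.1% in pHeps. Pklr, the liver pyruvate kinase, was 3.11%, 2.44% and 3.45% of Pklr and Pkm, against 6.73% and 9.27%, so Pkm was the main form in both groups.

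**Figure D2:**
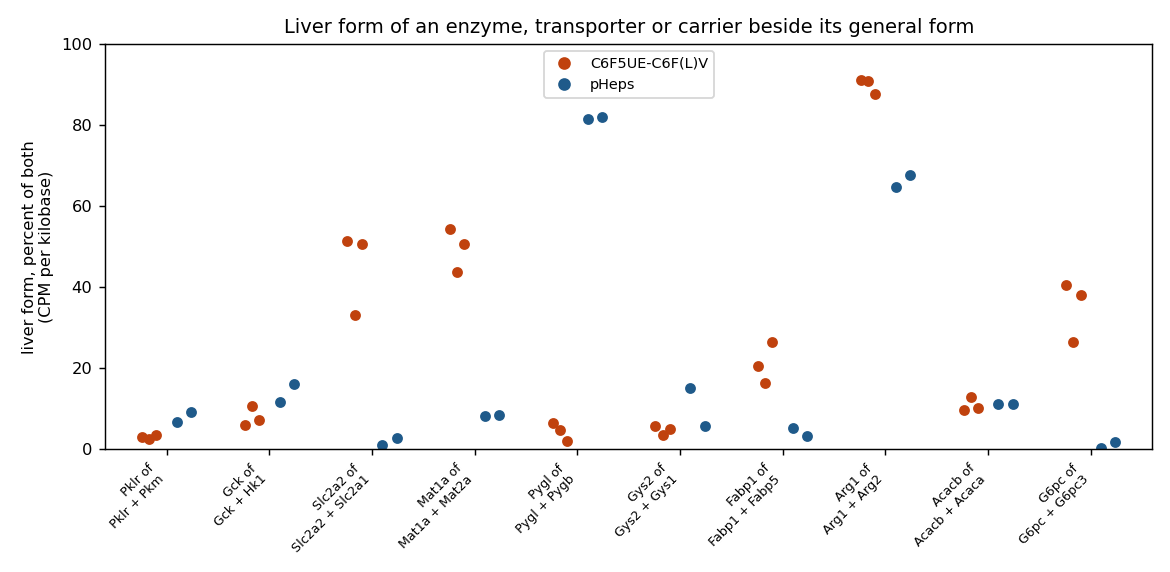
Share of the liver form in the sum of the liver and the general form of an enzyme, transporter or carrier, in percent of CPM per kilobase (vertical axis, from 0), for 10 pairs named under the axis. Each point is 1 library, with the 3 C6F5UE-C6F(L)V libraries in orange left of the 2 pHeps libraries in blue; Slc2a2 and Mat1a have the higher share in C6F5UE-C6F(L)V and Pygl in pHeps.

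Amino acid catabolism had 7 of 30 tested members higher in C6F5UE-C6F(L)V and 16 lower (median -1.13). The genes that rose were led by enzymes of methionine and betaine metabolism. Mat1a had 251, 156 and 263 CPM in C6F5UE-C6F(L)V, against 25.1 and 24.8 CPM in pHeps (log2 fold change 3.16, SE 0.21, adjusted p = 4.9e-08), Bhmt rose by 3.34 and Gnmt by 2.55. Hpd, of tyrosine breakdown, rose by 2.89. Tdo2, the hepatic enzyme of tryptophan breakdown, was among those that fell, with 1.03, 0.192 and 1.58 CPM against 24.7 and 27.3 CPM. The glycine cleavage gene Gldc fell by 1.87 and the transsulfuration gene Cth by 2.12. Tat, tyrosine aminotransferase, was not called, with 57, 36.8 and 59.8 CPM in C6F5UE-C6F(L)V against 61.7 and 62.4 CPM in pHeps.

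The urea cycle was uneven. Of 11 tested genes of the cycle and of ammonia handling, 3 were higher in C6F5UE-C6F(L)V and 3 lower (median -0.03). Cps1, which fixes ammonia at the first step, overlapped between the groups, with 237, 187 and 200 CPM in C6F5UE-C6F(L)V against 201 and 156 CPM in pHeps (log2 fold change 0.22, SE 0.13, adjusted p = 0.169). Arg1, which releases urea at the last step, overlapped too. Otc, the enzyme after Cps1, had 0.855, 0.866 and 1.06 CPM in C6F5UE-C6F(L)V, against 9.9 and 10.7 CPM in pHeps (log2 fold change -3.47, SE 0.39, adjusted p = 8.1e-06). Nags, which makes the activator of Cps1, had a log2 fold change of -3.56, which was -4.51 without C6F5UE-C6F(L)V replicate 1, the library in which it had 4.27 CPM. Glul, glutamine synthetase, which in liver marks the cells around the central vein, had 488, 443 and 509 CPM in C6F5UE-C6F(L)V, against 50.6 and 48.7 CPM in pHeps (log2 fold change 3.27, SE 0.11, adjusted p = 1.4e-10). Genes of that zone went both ways: of 17 tested pericentral genes 4 were higher (Glul, Cyp2c29, Tbx3 and Oat) and 4 lower (median -0.56), among them Cyp2a5, which fell by 3.74. Of 20 tested periportal genes 6 were higher and 4 lower (median -0.05).

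Drug-metabolising cytochrome P450 genes were mostly higher in C6F5UE-C6F(L)V. Of 36 tested members 23 were higher and 8 lower (median 1.96), and the list took 0.353%, 0.295% and 0.321% of counts in C6F5UE-C6F(L)V, against 0.112% and 0.123% in pHeps. Cyp2c29, Cyp4a12a and Cyp3a16 had no count in pHeps, and Cyp1a2 and Cyp2c67 had none in C6F5UE-C6F(L)V. Each of these reached the test only through the other group, so the called members and the median are a description. Cyp3a11 (ENSMUSG00000056035, GRCm38 chr5:145854426-145879964), an enzyme that oxidises many drugs, had 531, 352 and 598 CPM in C6F5UE-C6F(L)V, against 19.5 and 18.7 CPM in pHeps (log2 fold change 4.69, SE 0.22, adjusted p = 2.0e-09). Cyp2c29 had 85.9, 56.7 and 69.6 CPM and no count in pHeps, which makes it at least 487-fold higher by a floor of 3 counts over the group (249-fold without pHeps replicate 1 and 238-fold without pHeps replicate 2). Cyp2b10, a target of the receptor CAR, had 81.7, 107 and 123 CPM against 2.9 and 1.43 CPM. In all 3 the induced libraries stood far apart from the hepatocytes. Cyp1a2, known from liver around the central vein, had no count in C6F5UE-C6F(L)V, against 3 and 1.53 CPM in pHeps. Cyp2c70, which hydroxylates bile acids in mice, fell by 5.58 (0.855, 1.06 and 1.48 CPM against 52.3 and 55 CPM). The Cyp2c and Cyp3a genes are families of close copies whose reads may be split, and several P450 genes of mouse liver differ between the sexes.

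Conjugation enzymes and hepatic esterases did not share that direction, with 11 of 53 tested members higher and 20 lower (median -0.31). The glutathione transferase Gsta4 rose by 2.11, and Ugt1a1, the enzyme that conjugates bilirubin, by 3.26. Glyat, the glycine N-acyltransferase, had 5.9, 5.49 and 8.34 CPM against 94.4 and 103 CPM and fell by 3.92. In bile acid synthesis and transport 8 of 27 tested members were higher and 7 lower (median 0.39), and 4 rather than 8 were higher without C6F5UE-C6F(L)V replicate 1. Abcc2, the pump that exports conjugates into bile, had 78.3, 58.2 and 71.7 CPM in C6F5UE-C6F(L)V, against 343 and 392 CPM in pHeps (log2 fold change -2.40, SE 0.13, adjusted p = 5.6e-09). Fgfr4, the receptor through which FGF15 restrains bile acid synthesis, had 9.06, 9.53 and 4.43 CPM against 113 and 123 CPM.

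Of 32 tested genes of fatty acid oxidation and ketogenesis 6 were higher and 5 lower (median 0.26). Fabp1, the liver fatty acid binding protein, had 58, 43.9 and 83.3 CPM in C6F5UE-C6F(L)V, against 9 and 4.97 CPM in pHeps, while Cpt1a, which brings fatty acids into mitochondria, fell by 1.21. Among 27 genes of lipogenesis and triglyceride handling 2 were higher and 6 lower (median -0.45), and among 24 of cholesterol synthesis and uptake none was higher and 6 were lower (median -0.45).

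**Figure D3:**
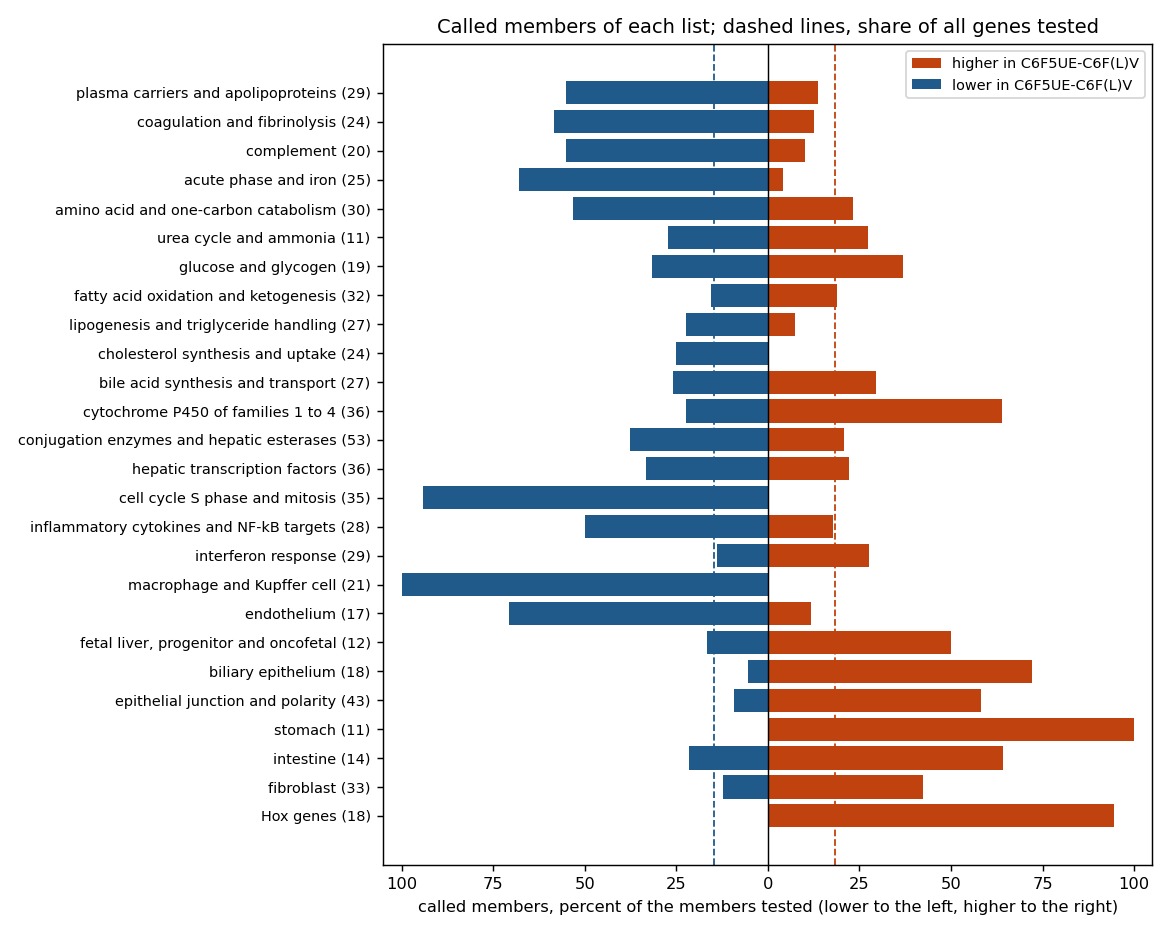
Called members of 26 gene lists, in percent of the members tested (horizontal axis; the number tested stands in brackets). Orange bars to the right are members higher in C6F5UE-C6F(L)V and blue bars to the left members lower; the dashed lines are the shares of all tested genes, 18.4% and 14.7%. All tested stomach genes are higher, and all tested macrophage genes and 33 of 35 cell cycle genes are lower.

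Of 36 tested transcription factors of hepatocytes 8 were higher in C6F5UE-C6F(L)V and 12 lower (median -0.27). Hnf4a (ENSMUSG00000017950, GRCm38 chr2:163506808-163572910), a nuclear receptor at the centre of the network, had 183, 153 and 187 CPM in C6F5UE-C6F(L)V, against 388 and 376 CPM in pHeps, and no count in MEF (log2 fold change -1.13, SE 0.11, adjusted p = 1.3e-06). Its level in the induced cells was 0.456 of that in pHeps. The pioneer factors Foxa1 and Foxa2 went opposite ways. Foxa1 had 0.855, 0.962 and 0.634 CPM in C6F5UE-C6F(L)V, against 17 and 16.1 CPM in pHeps (log2 fold change -4.31, SE 0.34, adjusted p = 2.8e-07). Foxa2 had 158, 170 and 155 CPM against 77.3 and 71.4 CPM and rose by 1.11 (SE 0.10, adjusted p = 1.1e-06). Neither pair of groups overlapped. Gata4, a factor of foregut endoderm, rose by 1.84. Mlxipl, which encodes the glucose sensor ChREBP, fell by 1.93 and Hhex, a factor of liver bud formation, by 2.04.

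**Figure D4:**
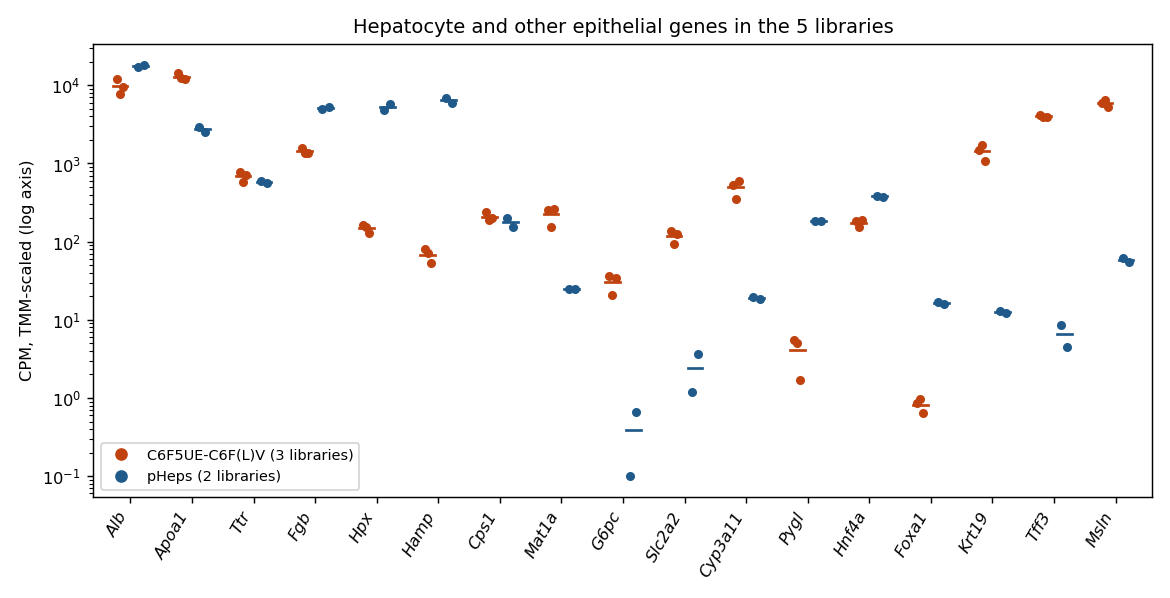
CPM of 17 genes in each library (vertical log axis), with the 3 C6F5UE-C6F(L)V libraries in orange left of the 2 pHeps libraries in blue and a short line at each group mean. Ttr and Cps1 overlap between the groups; Hpx, Hamp, Pygl and Foxa1 lie lower in C6F5UE-C6F(L)V, and G6pc, Slc2a2, Cyp3a11, Krt19, Tff3 and Msln lie higher.

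Genes of other epithelia were among the largest differences. Of 18 tested biliary epithelium genes 13 were higher in C6F5UE-C6F(L)V and 1 lower (median 3.14). The largest rise was Tff2, which had no count in pHeps. Tff2 and Muc1 are also counted in the stomach list below, and Epcam, Cldn4 and Cldn7 in the epithelial junction list. Sox4 and Slc4a2 were not called. Krt19, a keratin of bile duct and other simple ducts, had 1501, 1716 and 1091 CPM in C6F5UE-C6F(L)V, against 13 and 12.4 CPM in pHeps (log2 fold change 6.82, SE 0.21, adjusted p = 6.6e-11). Krt7, its partner in duct epithelium, had 2166, 2261 and 1878 CPM against 5.8 and 8.03 CPM. The keratins of hepatocytes themselves, Krt8 and Krt18, were not called, with log2 fold changes of -0.52 and -0.38. Epcam, a surface protein of ducts and progenitors, had 55.5, 69.3 and 52.1 CPM against 4.7 and 1.43 CPM (log2 fold change 4.27, and 5.34 without pHeps replicate 1 or 3.64 without replicate 2). Sox9, the duct and progenitor factor, had 20.8, 27.6 and 14.5 CPM in C6F5UE-C6F(L)V against 9.8 and 11.6 CPM in pHeps, and its log2 fold change of 0.97 missed the size for a call, which it reached without C6F5UE-C6F(L)V replicate 3 (1.19) or pHeps replicate 2 (1.10). Spp1, osteopontin, was the member that fell, by 1.83. In the wider list of epithelial junctions and polarity 25 of 43 tested members were higher and 4 lower (median 1.77). Pkp1 and Ovol1 had no count in pHeps, and Cldn14 had none in C6F5UE-C6F(L)V. These members reached the test only through the other group, so this count and median are a description. E-cadherin, Cdh1, had 329, 348 and 291 CPM against 121 and 142 CPM and rose by 1.30 (SE 0.12, adjusted p = 8.6e-07). Claudins differed from each other: Cldn2 rose by 3.02, and Cldn3 fell by 3.69.

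Stomach genes were detected in C6F5UE-C6F(L)V and hardly at all in pHeps. All 11 tested members of this list were higher (median 9.50), and the 17 members together took 0.185%, 0.181% and 0.144% of counts in C6F5UE-C6F(L)V, against 0.000409% and 0.000377% in pHeps. A member reached the test only through the group in which it was high, so the count of 11 is a description. Gkn2, gastrokine 2 of the stomach surface (ENSMUSG00000030049, GRCm38 chr6:87373357-87379497), had 1093, 1068 and 775 CPM in C6F5UE-C6F(L)V and no count in pHeps or MEF. It was at least 6745-fold higher (3447-fold without pHeps replicate 1, 3298-fold without replicate 2). Gkn1 had 143, 146 and 150 CPM and Tff2, a trefoil peptide of gastric mucus, 41.6, 46.1 and 63.5 CPM, again with no count in pHeps. The gastric protease gene Ctse had 341, 342 and 280 CPM against 0 and 0.574 CPM. Gpa33, Muc2 and Cdx2 of the intestine list had no count in pHeps. They reached the test only through C6F5UE-C6F(L)V, so the count of higher members and the median of this list are a description. Of 14 tested intestine genes 9 were higher and 3 lower (median 4.45), and the 3 that were lower (Ascl2, Fabp2 and Cdh17) were of few counts. Without C6F5UE-C6F(L)V replicate 3 or pHeps replicate 1 only 1 was called lower, and without pHeps replicate 2 none was: Ascl2 had too few counts for that test, and Fabp2 (-2.41) and Cdh17 (-1.04) kept their size but not the threshold on p. Tff3, the trefoil peptide of goblet cells, had 4190, 3914 and 3923 CPM in C6F5UE-C6F(L)V, against 8.7 and 4.5 CPM in pHeps (log2 fold change 9.25, SE 0.24, adjusted p = 1.3e-11). Vil1, villin of the brush border, rose by 5.68, and Lgals4, galectin 4, by 4.82. The intestinal factor Cdx2 had 3.76, 2.41 and 2.64 CPM in C6F5UE-C6F(L)V and no count in pHeps.

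Msln, the mesothelial surface protein mesothelin, had 5907, 6416 and 5325 CPM in C6F5UE-C6F(L)V, against 62.4 and 54.2 CPM in pHeps (log2 fold change 6.66, SE 0.14, adjusted p = 4.4e-12), and 44 CPM on average in MEF. Wt1, a factor of mesothelium and its derivatives, rose by 3.41. In the list of hepatic stellate cell and mesothelium 6 of 13 tested members were higher and 1 lower (median 1.86). None was lower without C6F5UE-C6F(L)V replicate 2 or 3 or pHeps replicate 1. Its share of counts, 0.664%, 0.711% and 0.585% against 0.019% and 0.0178%, was almost all Msln. In the keratinocyte list Sprr2a1, Krt13 and Serpinb5 had no count in pHeps. They reached the test only through C6F5UE-C6F(L)V, so the count of higher members and the median are a description. Of 20 tested keratinocyte genes 12 were higher and 3 lower (median 2.68). Their direction was mixed by level: Anxa8 had 778, 775 and 758 CPM in C6F5UE-C6F(L)V against 0 and 0.0956 CPM in pHeps, while Sprr1a, a cornified envelope protein, had 210, 200 and 239 CPM against 5758 and 5289 CPM. Krt5, the basal cell keratin, was too low for the test in both groups. Among extraembryonic endoderm genes 12 of 20 tested were higher and 2 lower (median 1.20). Sox17, an endoderm factor, had 13.8, 22.3 and 13.3 CPM against 1.1 and 0.765 CPM (log2 fold change 4.13, SE 0.40, adjusted p = 1.8e-06). Foxq1 rose by 4.31.

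Of the 10 largest rises and 10 largest falls among genes with at least 10 CPM on average, leaving out predicted genes, the rises were Gkn2, Mucl3, Sptssb, Xist, H19, Sytl2, Anxa8, Gkn1, Sprr2f and Rbp2. Mucl3, a mucin-like gene, had 461, 506 and 395 CPM in C6F5UE-C6F(L)V and no count in pHeps, and Rbp2, the retinol carrier of the small intestine, had 141, 116 and 102 CPM and none. The falls were Ccl6, C1qb, Wfdc17, C1qa, C1qc, Igha, Igkc, Lilr4b, Ms4a4a and Marco, with no count for any of them in C6F5UE-C6F(L)V. All 10 are genes known from macrophages, other leukocytes or plasma cells.

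Collagen genes of fibroblasts were measurable in C6F5UE-C6F(L)V, below their level in MEF. The MEF values come from another deposited table, so that table and group cannot be told apart in them. Of 33 tested fibroblast genes 14 were higher in C6F5UE-C6F(L)V than in pHeps and 4 lower (median 1.39), and 2 were lower without pHeps replicate 1. Col1a1, the main collagen of fibroblasts, had 10.3, 12 and 8.24 CPM in C6F5UE-C6F(L)V, against 1.2 and 0.478 CPM in pHeps (log2 fold change 3.60, SE 0.45, adjusted p = 2.1e-05, and 4.38 without pHeps replicate 1), and averaged 12485 CPM in MEF. Col6a1 had 152, 156 and 127 CPM against 6.2 and 3.35 CPM, and 1497 CPM in MEF. Thy1, a surface marker of fibroblasts, was called at 2.01 (2.79 without pHeps replicate 1), but not without pHeps replicate 2, where it was 1.49. Fibronectin (Fn1) and vimentin (Vim) were not called. Hox genes, which record position along the body axis, were high in the induced cells: 17 of 18 tested members were higher and none lower (median 6.54), while 21 of the 39 genes had too few counts for the test. Those with no count in pHeps reached the test only through C6F5UE-C6F(L)V, so this count is a description. Hoxc6 had 47.8, 56 and 52.4 CPM in C6F5UE-C6F(L)V and no count in pHeps, so it was at least 354-fold higher (181-fold without pHeps replicate 1 and 173-fold without replicate 2), and it averaged 43.3 CPM in MEF. H19, an imprinted RNA of fetal tissues, had 1170, 1122 and 1633 CPM against 0 and 0.0956 CPM, and 3805 CPM in MEF. Of the 12 tested fetal and progenitor genes 6 were higher and 2 lower (median 0.61).

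Of the 2864 genes higher in C6F5UE-C6F(L)V, 1913 (66.8%) were at 1 CPM or more in all 3 MEF libraries, and 762 were below 1 CPM in all of them. Among the 2276 genes that were lower the share at 1 CPM or more in MEF was 71.4%, and among the genes not called it was 86.3%. Genes absent from MEF and higher in C6F5UE-C6F(L)V included Apoa1, Cyp3a11, G6pc, Slc2a2, Mat1a, Gkn2 and Tff3, each with no count in MEF.

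Cell cycle genes were lower in C6F5UE-C6F(L)V almost without exception. Of 35 tested genes of S phase and mitosis none was higher and 33 were lower (median -2.87), and the list took 0.0879%, 0.0885% and 0.0934% of counts in C6F5UE-C6F(L)V, against 0.333% and 0.316% in pHeps. Ccnb1, the cyclin of mitotic entry, had 8.29, 8.66 and 9.08 CPM in C6F5UE-C6F(L)V, against 164 and 162 CPM in pHeps (log2 fold change -4.23, SE 0.11, adjusted p = 1.3e-11). Mki67, the proliferation marker Ki-67, had 4.53, 5.87 and 7.39 CPM against 62.4 and 58.8 CPM, and the mitotic kinase Cdk1 had 50.6, 40.3 and 64.6 CPM against 302 and 287 CPM. The groups were far apart in each. Rrm2 and E2f1 were the members not called, and E2f1 was called as lower without pHeps replicate 1 (-1.04). Among cell cycle inhibitors and p53 targets 6 of 20 tested were higher and 1 lower (median 0.51). None was lower without C6F5UE-C6F(L)V replicate 1 or 2, and 2 were without pHeps replicate 2. Cdkn2a, which encodes p16 and p19, had 70.3, 80.7 and 79.4 CPM in C6F5UE-C6F(L)V, against 0.2 and 0.383 CPM in pHeps (log2 fold change 7.98, SE 0.26, adjusted p = 7.8e-11), and 101 CPM in MEF. Cdkn1a, p21, was not called at a log2 fold change of 0.50.

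Of 28 tested cytokine and NF-kB target genes 5 were higher in C6F5UE-C6F(L)V and 14 lower (median -1.44). Ccl2, which draws monocytes, had 14.2, 12.5 and 18.8 CPM in C6F5UE-C6F(L)V, against 896 and 979 CPM in pHeps (log2 fold change -5.95, SE 0.15, adjusted p = 1.1e-11). Cxcl1, which draws neutrophils, had 52.9, 60.8 and 29.7 CPM against 848 and 901 CPM. Il33, an alarmin, rose by 2.11. Interferon response genes were split: 8 of 29 were higher and 4 lower (median 0.09), and 7 rather than 4 were lower without C6F5UE-C6F(L)V replicate 2. The antigen presentation genes H2-K1 and B2m fell, by 3.26 and 2.11, and the antiviral gene Oas2 rose by 3.40 (94, 161 and 126 CPM against 12 and 12 CPM). H2 genes are close copies whose reads may be split.

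Markers of the blood and vessel cells of the liver were found in pHeps and were mostly at or near 0 in C6F5UE-C6F(L)V. Members of the macrophage, endothelial and leukocyte lists that had no count in C6F5UE-C6F(L)V reached the test only through pHeps, so the counts and medians of these lists are a description. The 21 tested macrophage and Kupffer cell genes were lower (median -9.47), 12 of the list had no count in C6F5UE-C6F(L)V, and the whole list of 23 took 0.0108%, 0.0117% and 0.0133% of counts in C6F5UE-C6F(L)V, against 0.228% and 0.2% in pHeps. C1qb, a chain of complement C1q made by macrophages, had no count in C6F5UE-C6F(L)V, against 314 and 253 CPM in pHeps, and was at least 2975-fold lower (1872-fold without C6F5UE-C6F(L)V replicate 1 and 1996-fold without replicate 2). The Kupffer cell genes Clec4f (25.3 and 20.4 CPM in pHeps) and Marco (77.3 and 60.3 CPM) also had no count in C6F5UE-C6F(L)V. Cd14, which hepatocytes express too, had 80.4, 88.2 and 107 CPM in C6F5UE-C6F(L)V against 599 and 701 CPM in pHeps. Of 17 tested endothelial genes 2 were higher and 12 lower (median -3.45), with a summed share of 0.00588%, 0.00654% and 0.00472% against 0.0423% and 0.034%. Cdh5, the cadherin of vessel walls, had no count in C6F5UE-C6F(L)V, against 11.7 and 9.47 CPM in pHeps, and Stab1 of sinusoids and macrophages fell by 5.64. Of 16 lymphocyte and neutrophil genes 10 had no count in C6F5UE-C6F(L)V and 11 were too low for the test, and the 5 tested were lower (median -6.58). Erythroid and platelet genes went both ways, with 3 of 6 tested members higher (Hba-a1, Klf1 and Itga2b) and 2 lower (median 1.00). In the fit to all 21 libraries 1 rather than 3 was higher. Klf1, at a log2 fold change of 1.74, was not called without C6F5UE-C6F(L)V replicate 2 (1.54). Its log2 fold change was 1.27 without pHeps replicate 1 and 2.46 without pHeps replicate 2. Without pHeps replicate 1 only 1 was lower. Pf4, platelet factor 4, made up almost all of the summed level of that list in pHeps and had 0.0855, 0.0962 and 0.422 CPM in C6F5UE-C6F(L)V, against 681 and 549 CPM in pHeps. The acute phase, complement and inflammatory genes above were lower in the group in which these markers were mostly at or near 0, and the part of macrophage and other blood cell RNA in those values was not tested. Some of these genes, such as Ccl2, are made by more than 1 cell type, and which cells in pHeps gave their transcripts was not tested.

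**Figure D5:**
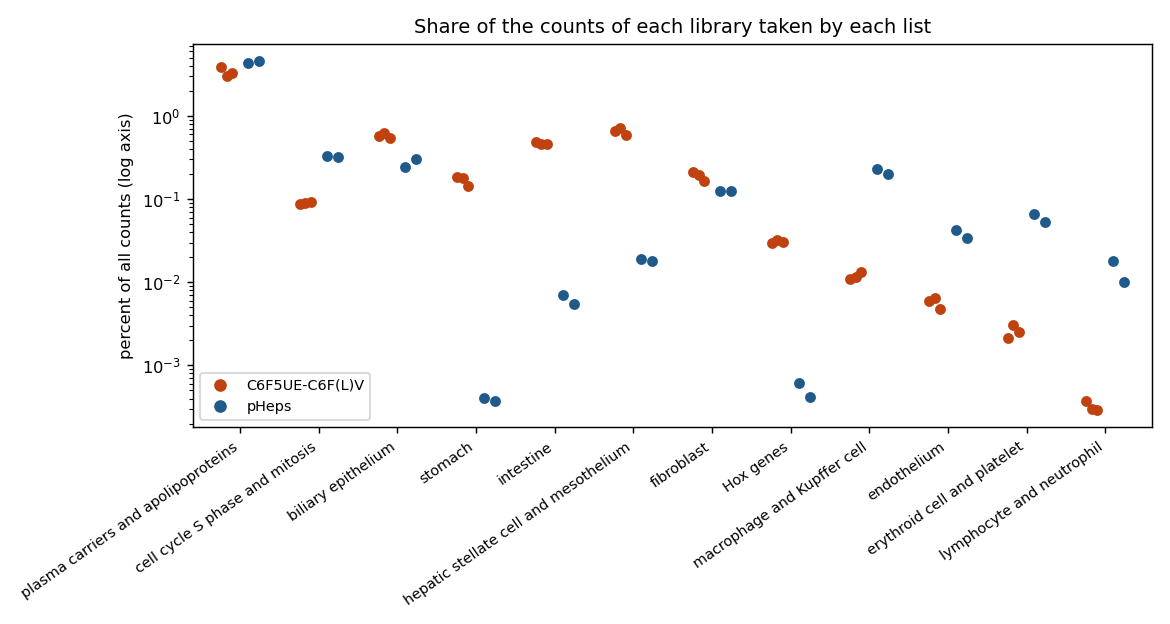
Share of all counts of each library taken by the members of 12 lists, in percent (vertical log axis). Each point is 1 library, with the 3 C6F5UE-C6F(L)V libraries in orange left of the 2 pHeps libraries in blue; stomach, intestine, mesothelium and Hox genes are higher in C6F5UE-C6F(L)V, and cell cycle, macrophage and endothelium genes lower. The lower share of the erythroid and platelet list is almost all Pf4. An exact two-sided permutation test of 3 against 2 libraries cannot go below p = 0.2.

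Genes known to answer to agents of the kinds in the induction media were examined next. Whether an agent caused any of these differences was not tested. By the labels Forskolin was at 2 µM in the last step, and CH55 was in the first medium only. The medium of the induced cells held dexamethasone, a glucocorticoid, and the labels do not give the agents in the medium of pHeps. Of 21 tested glucocorticoid response genes 12 were higher and 3 lower (median 1.16). The summed share of the list went the other way, at 1.21%, 1.2% and 1.02% of counts in C6F5UE-C6F(L)V, against 2.63% and 2.64% in pHeps. Fkbp5, a standard target of the receptor, had 957, 906 and 863 CPM in C6F5UE-C6F(L)V, against 70.5 and 70.7 CPM in pHeps (log2 fold change 3.69, SE 0.11, adjusted p = 4.3e-11), and the kinase gene Sgk1 rose by 2.07. The 3 lower members were the metallothioneins Mt1 (log2 fold change -1.26) and Mt2 (-1.99), and Lcn2 (-3.81). Forskolin raises cAMP, and of 24 tested cAMP and immediate early genes 15 were higher and 2 lower (median 1.56), and 1 was lower without C6F5UE-C6F(L)V replicate 3 or pHeps replicate 1. Fos had 291, 312 and 129 CPM in C6F5UE-C6F(L)V, against 10.4 and 10.7 CPM in pHeps (log2 fold change 4.53, SE 0.34, adjusted p = 1.9e-07), with replicate 3 the lowest of the induced libraries. Retinoid response genes had 6 of 19 higher and 5 lower (median 0.27). Of the members that were higher, Crabp1, Aldh1a3 and Stra6 had no count in pHeps. They reached the test only through C6F5UE-C6F(L)V, so this count and median are a description. Cyp26a1, which breaks down retinoic acid and is induced by it, had 9.57, 15.4 and 10.3 CPM in C6F5UE-C6F(L)V, against 170 and 164 CPM in pHeps. Of 15 tested Wnt feedback and target genes 4 were higher and 4 lower (median 0.40), and 2 were lower without pHeps replicate 1 and also without pHeps replicate 2. Of 19 TGF-beta and contractile targets 10 were higher and 2 lower (median 1.09). YAP and TEAD targets had 12 of 22 higher and 1 lower (median 1.30), among them Amotl2, an inhibitor of YAP, which rose by 2.01.

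Of 19 tested NRF2 targets, genes of the oxidative stress response, 3 were higher in C6F5UE-C6F(L)V and 7 lower (median -0.74). Srxn1, sulfiredoxin, had 68.3, 63.2 and 61.7 CPM in C6F5UE-C6F(L)V, against 560 and 638 CPM in pHeps (log2 fold change -3.22, SE 0.10, adjusted p = 7.2e-11). Of 31 genes of the unfolded protein and amino acid stress responses 3 were higher and 7 lower (median -0.44). The chaperone Hspa5 fell by 1.20, and Nupr1, a stress-induced chromatin protein, had 254, 314 and 304 CPM in C6F5UE-C6F(L)V against 14.7 and 12.5 CPM in pHeps. Among 40 growth factor and receptor genes 15 were higher and 9 lower (median 0.19). Vegfa, which acts on vessels, had 1380, 1362 and 1062 CPM in C6F5UE-C6F(L)V, against 160 and 180 CPM in pHeps (log2 fold change 2.90, SE 0.14, adjusted p = 2.2e-09), while Igf1, a circulating product of adult liver, had 3.16, 2.02 and 2.11 CPM against 28.2 and 28.9 CPM.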

How the data were processed

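Per the labels' protocols, polyadenylated RNA (1 µg) was made into NEBNext Ultra libraries with fragments of 250 to 300 bp. HISAT2 and the build GRCm38 (mm10) are named in the submitters' processing notes. Counting tool, annotation and strand setting: not given in the sources used here. Therefore overlapping and antisense genes may share reads. The authors deposited raw counts per gene, used here as deposited. A table named for FPKM held the same counts, and no FPKM value was used.

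Genes were filtered with filterByExpr (minimum count 10, minimum total 15), scaled by TMM and tested with edgeR 4.0.16 (quasi-likelihood, R 4.3.3, limma 3.58.1), with Benjamini-Hochberg adjustment over all 15531 genes and no covariate. The same fit was also run on simulated counts, and its outcome is not reported here. CPM are TMM-scaled. The 5 libraries held 9180939 to 11163621 counts; intervals and floors (3 counts) cover counting error only. Levels of different genes were compared as CPM per kilobase in place of TPM, chosen after seeing that Gm23935 took 36.9% and 35.1% of TPM in C6F5UE-C6F(L)V replicates 2 and 3. The labels do not pair replicate numbers across groups, and same-numbered libraries did not deviate together (correlations of -0.012 and -0.01). MEF levels came from another table, with TMM over 21 libraries.

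The comparison, the gene lists and the genes named were chosen with earlier results of these data known. Genes were named by rule: 10 sentinels, the 10 largest rises and falls, up to 4 called members in each direction and the 4 most abundant members of each list, enzyme pairs, the 10 most abundant genes of each group and up to 3 members not called. Mki67, Clec4f, Cyp2b10 and a few others described by their role were added from the lists after their values were seen. Alternatives were other scalings, DESeq2 1.42.0, other filters, a test against the fold threshold, a replicate block, a fit to all 21 libraries and leaving out each library. Some genes met by the rule and 1 motif are not reported here.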

Additional observations from a re-analysis of the deposited data

How the results depend on the processing

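The counts of 2864 genes higher and 2276 genes lower in C6F5UE-C6F(L)V stayed within 1.5 times under every alternative run. They were 2046 and 1588 at the least (test against a log2 fold change of 1) and 3177 higher (library size only) and 2480 lower (no filter on low counts) at the most. Leaving out 1 library gave 2614 to 2803 genes higher and 2056 to 2274 lower, and 2160 and 1665 calls were kept in all 5 such fits. DESeq2 called 2857 and 2229. Scaling by library size alone moved the median of all genes from 0.01 to 0.15. With the replicate number as a block, which pairs nothing by the labels, 2732 genes were higher and 2183 lower, and 2639 and 2068 calls were kept; in the intestine list it left 0 lower calls in place of 3. Of 368 called genes among the named, 293 kept their call in all of the 14 fits that tested them, and none reversed. Some genes of few counts were not tested in every fit, such as Slco1b2 (tested in 12) and Foxf2 (13). Hnf4a lost its call with library size alone and in the test against a log2 fold change of 1. C3, Foxa2 and Cpt1a lost theirs in that test alone. The fit to all 21 libraries lost the calls of Apoa1, Apoe, Fgb, F10, Hrg, Pklr and Spp1 at folds that moved by at most 0.01, with adjusted p of 0.0629 to 0.153, and left 10 of 16 lower calls among plasma carriers and 9 of 14 in coagulation. The test against a log2 fold change of 1 left 3 higher and 6 lower hepatic transcription factors in place of 8 and 12, 2 higher bile acid genes in place of 8 and 1 lower fatty acid oxidation gene in place of 5. The stricter filter left 11 of 17 Hox calls and 6 of 12 lower endothelial calls, since fewer genes were tested. At 5 CPM in all MEF libraries 1468 of the 2864 genes were counted as present in MEF, against 1913 at 1 CPM. Calls on genes of few counts rest on only 2 hepatocyte libraries. The cause of the other differences between settings was not tested.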

Other observations

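Some gene groups outside the comparisons above also differed. The matrix receptor and laminin list had 8 of 21 tested members higher in C6F5UE-C6F(L)V and 5 lower (median log2 fold change 0.42), and 3 were lower without pHeps replicate 2. The basement membrane laminin Lama5 had 1278, 1364 and 1144 CPM in C6F5UE-C6F(L)V, against 105 and 105 CPM in pHeps, and Itgb4, the integrin chain that binds laminin in hemidesmosomes, had 134, 158 and 122 CPM against 2.2 and 1.43 CPM. The hyaluronan receptor Cd44 had 65.1, 73.2 and 49.2 CPM against 207 and 229 CPM. Of 10 tested muscle, neuron and adipocyte genes 6 were higher and none lower (median 1.95), and 3 rather than 6 were higher in the fit to all 21 libraries. Without C6F5UE-C6F(L)V replicate 3 a single member was lower. Pparg, a nuclear receptor of fat cells, had 60.4, 61.6 and 64.1 CPM in C6F5UE-C6F(L)V, against 2.1 and 2.3 CPM in pHeps (edgeR log2 fold change 4.81, SE 0.18, adjusted p = 3.3e-10). Of 3 tested pluripotency genes, Klf4 and Tfcp2l1 were higher, Klf4 with 119, 131 and 94.1 CPM against 6.8 and 10 CPM, and the other 14 genes of that list had too few counts for the test.

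Cytosolic ribosomal protein genes took 7.19%, 7.1% and 7.46% of counts in C6F5UE-C6F(L)V, against 9.01% and 8.55% in pHeps, with none of 80 tested members higher and 4 lower (median -0.39). Mitochondrially encoded genes took 0.441%, 0.537% and 0.953%, against 0.734% and 0.859%, with 3 of 17 higher and 4 lower (median -0.59). Of the 3, mt-Rnr1 and mt-Rnr2 were high in C6F5UE-C6F(L)V replicates 2 and 3 only: mt-Rnr2 had 7.69, 427 and 417 CPM against 5.3 and 11.6 CPM, so its replicate 1 lay between the pHeps libraries. Of the 4, mt-Nd1 (-1.08) lost its call without C6F5UE-C6F(L)V replicate 1 (-0.89) or 2 (-0.88).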
